A study of Arabidopsis thaliana with 8 samples.

Results

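Roots of dark-grown Arabidopsis thaliana seedlings were compared between day 7 and day 4. The comparison takes every locus with at least 10 counts in at least 2 of the 4 dark libraries, which kept 19757 of the 33602 loci in the table. The series measured root transcripts by RNA-seq in seedlings kept in the dark or given light on the shoot alone, in 4 groups of 2 libraries. All 8 libraries came from wild-type accession Col-0, from primary roots of seedlings raised at 21 °C on Murashige and Skoog agar with no sucrose. In both dark groups shoot and root were dark, because the plates were wrapped in aluminium foil, and roots were harvested at 4 or 7 days. In the other groups a modified D-Root device lit the shoot in long days while the root stayed shaded, with harvests at the same ages. A library came from one of 2 independent biological samples of about 70 pooled seedlings, so that a value is a mean over many roots and all root cell types. Ribosomal RNA was removed before library preparation, so that transcripts of mitochondria and plastids stayed in the libraries.

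A seedling in the dark on medium without sugar lives on its seed reserves and puts them mainly into hypocotyl growth. Root growth depends on sugar from the shoot, which drives cell division in the meristem through the TOR kinase, while the SnRK1 kinase turns on catabolic genes when energy runs short. Root tissues mature in a fixed order behind the tip, from dividing cells through elongating cells to root hairs, xylem vessels with lignified walls and an endodermis with a Casparian strip.

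The dark libraries held 25326045 to 27787166 counts, and the 4 lit-shoot libraries 25849135 to 30555290. Log2 CPM of replicates (CPM, counts scaled to a common library size, with TMM correcting the library total for composition) correlated at r = 0.982 at day 4 and 0.986 at day 7 in the dark, across loci that are not independent replicates. Counts of replicates differed by more than sampling noise, at a chi-square of 20.8 to 25.2 per degree of freedom. Among the dark libraries the first principal component held 80.0% of the variance and set the days apart. Mitochondrion-encoded loci took 8.68% and 10.5% of all counts at day 4 and 4.59% and 5.09% at day 7, and plastid-encoded loci 0.840% to 0.975%. With lit shoots the mitochondrial share was 4.53% and 3.89% at day 4 and 6.46% and 2.66% at day 7, so replicates of a group could differ widely. The locus ATMG00020 alone held most of the mitochondrial counts in each dark library, and it was not called. The part of ribosomal RNA removal in these shares was not tested. The labelled tissue was checked with 13 root markers, all of which had counts. SHR, a factor of ground tissue patterning, had 14.3 to 15.6 CPM in the 4 dark libraries, and MYB36, a factor of endodermis maturation, had 61.0 to 75.8 CPM. Of 15 shoot and leaf markers 2 passed the count filter and of 12 seed storage genes 1 did, and none of these 3 was called. The shoot and leaf markers summed to 2.92 and 10.13 CPM at day 4 and 2.18 and 3.00 CPM at day 7, with STM, MUTE, FMA and EPF1 at 0 counts in the 4 dark libraries.

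Between day 4 and day 7 in the dark, 6638 loci changed (33.6% of the 19757 tested) by edgeR's quasi-likelihood test with Benjamini-Hochberg adjustment at an adjusted p below 0.05. Of these, 2634 were higher at day 7 (13.3%) and 4004 were lower (20.3%). Falls were deeper than rises. A fitted fold of at least 2 was reached by 2095 falls and 716 rises, and a fold of at least 8 by 320 falls and 53 rises. The median log2 fold change was -1.05 among the falls, 0.68 among the rises and -0.01 over all loci tested. Loci that fell took 210579 CPM in sum at day 4 and 119848 at day 7, and loci that rose took 121368 and 185071 CPM. Rises made 39.7% of the calls. Scaled by library totals alone, the same fit gave 3483 rises and 3321 falls, of which rises made 51.2%, and no call turned its direction. A total of 13930 loci (70.5%) had no overlap between the libraries of both days.

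The filter itself favours some calls, since 401 loci passed through the day 4 libraries alone and 203 through the day 7 libraries alone. Other loci, among them VND7, MYB46, CDC6 and SHY2 described below, reached 10 counts in both day 4 libraries but not in each day 7 library. Their entry leaned on day 4 too. Among the 18355 loci with at least 10 counts in all 4 dark libraries, 2622 were higher and 3474 lower. At the edge of the rule, 131 loci had 10 as their second-highest count and entered, 20 of them called, and 134 loci had 9 and did not. The count of rises was 1160 to 1947 with a dark library left out, lowest without day 7 replicate 1, and that of falls was 2443 to 3181.

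**Figure D1:**
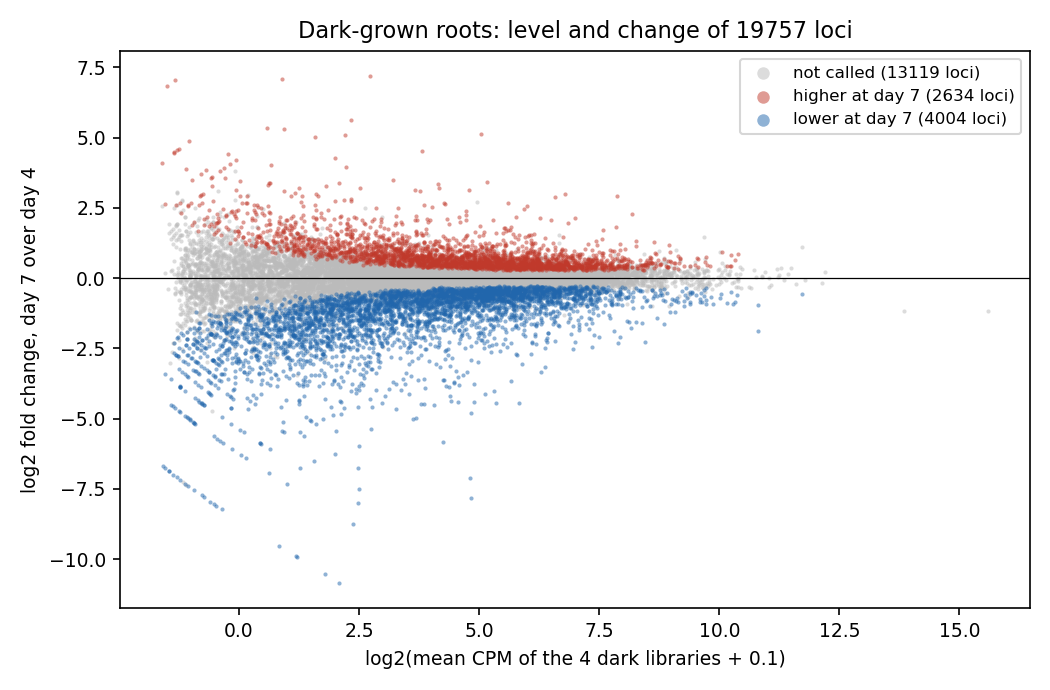
Log2 fold change of day 7 over day 4 against the mean level in the 4 dark libraries, 1 point for each of the 19757 loci. The 4004 loci called lower (blue) reach further from 0 than the 2634 called higher (red).

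Among these loci, roots of lit shoots had far fewer calls over the same days. Of the same 19757 loci, 797 were called with lit shoots by the same test (4.03%), 439 higher (2.22%) and 358 lower (1.81%) at day 7. The filter used the dark libraries alone, so loci with counts only under lit shoots were not tested. The median absolute log2 fold change was 0.373 in the dark and 0.214 with lit shoots. Lit-shoot replicates differed at a chi-square of 12.0 per degree of freedom at day 4 and 69.6 at day 7. The interaction test asks whether the change with age differs between dark and lit-shoot roots, and it called 3049 loci (15.4%). In 2133 of them (10.8%) the dark change lay below the lit change, and in 916 (4.64%) above it. Of the loci that fell in the dark, 1898 (47.4%) also passed the interaction in that direction, and of those that rose 713 (27.1%) did. The interaction contains the dark change by which these loci were picked, so these shares are raised by the choice and are no separate support. Loci called in the same direction in both conditions were few. They were 132 rises, which made 5.01% of the dark rises and 30.1% of the lit rises, and 178 falls, which made 4.45% of the dark falls and 49.7% of the lit falls. The dark and the lit comparison share no library, while the interaction uses the libraries of both. Without a lit library of day 4 the interaction called 894 to 1136 loci.

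The deepest falls named by rule were in genes of cell surface glycoproteins and of xylem. AGP22 (AT5G53250, chromosome 5, 21603569 to 21604414, plus strand, TAIR10.1), an arabinogalactan protein of the cell surface, had 42.0 and 31.9 CPM at day 4 and 0.839 and 0.472 CPM at day 7 (log2 fold change -5.82 ± 0.24 SE, edgeR adjusted p = 8.1e-06). Both day 7 libraries were far under the day 4 libraries, but the naming rule took the largest falls without overlap between days. With lit shoots it had 142 and 138 CPM at day 4 and 98.2 and 109 CPM at day 7. FLA2 (AT4G12730), a fasciclin-like arabinogalactan protein, had 55.7 and 57.0 CPM at day 4 and 2.56 and 2.76 CPM at day 7 (log2 fold change -4.40 ± 0.11 SE, edgeR adjusted p = 6.9e-07). ELP (AT1G12090), an extensin-like protein, had 52.5 and 56.7 CPM at day 4 and 2.119 and 1.82 CPM at day 7 (log2 fold change -4.79 ± 0.13 SE, edgeR adjusted p = 7.7e-07). In both genes the replicates of a day lay close together, and the gap between the days was required by the naming rule. Both also fell with lit shoots, less deeply by the interaction test. The lit log2 fold change of FLA2 was -0.87 ± 0.09 (edgeR adjusted p = 0.0049), with an interaction of -3.54 ± 0.14 (edgeR adjusted p = 1.7e-05). That of ELP was -1.02 ± 0.10 (edgeR adjusted p = 0.0048), with an interaction of -3.78 ± 0.17 (edgeR adjusted p = 2.7e-05). DMP2 (AT3G21550), a predicted membrane protein, had 20.7 and 28.8 CPM at day 4 and 0.919 and 0.654 CPM at day 7 (log2 fold change -4.98 ± 0.30 SE, edgeR adjusted p = 4.9e-05). GL22 and GLP10, germin-like proteins, fell from 14.3 to 24.6 CPM at day 4 to 0.879 to 1.38 CPM at day 7.

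The largest rises named by rule came from genes of varied function. EMB1030 (AT5G22800, chromosome 5, 7615747 to 7620278, minus strand), an alanyl-tRNA synthetase, had 24.4 and 24.1 CPM at day 4 and 203 and 188 CPM at day 7 (log2 fold change 3.01 ± 0.11 SE, edgeR adjusted p = 2.8e-06). Its day 4 replicates were close and both day 7 libraries far higher, a separation that the naming rule required. It had 8.15 to 10.9 CPM in the 4 lit-shoot libraries. HIS1-3 (AT2G18050, chromosome 2, 7845923 to 7847031, plus strand), a linker histone known from drought responses, had 54.4 and 55.0 CPM at day 4 and 455 and 369 CPM at day 7 (log2 fold change 2.91 ± 0.29 SE, edgeR adjusted p = 0.00052). PLA2A (AT2G26560), a lipid acyl hydrolase of the patatin type, had 26.7 and 18.6 CPM at day 4 and 154 and 184 CPM at day 7 (log2 fold change 2.89 ± 0.19 SE, edgeR adjusted p = 5.4e-05). It also rose with lit shoots (log2 fold change 1.72 ± 0.18, edgeR adjusted p = 0.0056). JRG21 (AT3G55970), which encodes an oxygenase that inactivates jasmonate, had 107 and 92.9 CPM at day 4 and 572 and 390.4 CPM at day 7 (log2 fold change 2.27 ± 0.18 SE, edgeR adjusted p = 0.00011) and under 1 CPM in every lit-shoot library.

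A protease and regulators of transcription were also among these rises. CEP1 (AT5G50260), a papain-type cysteine protease of dying cells, had 1.61 and 0.696 CPM at day 4 and 35.3 and 17.9 CPM at day 7 (log2 fold change 4.51 ± 0.53 SE, edgeR adjusted p = 0.00095). XND1 (AT5G64530), a NAC factor that holds back vessel differentiation, had 2.52 and 1.74 CPM at day 4 and 15.4 and 8.75 CPM at day 7 (log2 fold change 2.495 ± 0.33 SE, edgeR adjusted p = 0.00089). AGL44 (AT2G14210), the nitrate-related MADS-box factor ANR1, had 7.49 and 3.26 CPM at day 4 and 36.0 and 30.7 CPM at day 7 (log2 fold change 2.63 ± 0.35 SE, edgeR adjusted p = 0.0022). The day 7 replicates of CEP1 and XND1 differed widely, and the rule that named these genes required that the days not overlap. CYP82C2 (AT4G31970), a cytochrome P450 of indole defence compounds, rose in the dark (log2 fold change 5.14 ± 0.67 SE, edgeR adjusted p = 0.0026) and with lit shoots (log2 fold change 5.66 ± 0.63, edgeR adjusted p = 0.013), and 2 loci resemble it at 91.6% and 91.9% identity, so that its own value is uncertain. SRO3, NUC-L2, GLP9 and BGLU28 completed the rises named by rule, with log2 fold changes of 2.22 to 3.48. The call of GLP9 was lost without either day 4 library or day 7 replicate 2 (edgeR adjusted p up to 0.15), and that of BGLU28 without day 4 replicate 2 or day 7 replicate 1 (up to 0.13).

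Among called genes with a symbol and no overlap between days, the largest losses in absolute level were in transport and defence genes. NRT1.5 (AT1G32450), which loads nitrate into the xylem, had 2744 and 2891 CPM at day 4 and 1079 and 445 CPM at day 7 (log2 fold change -1.89 ± 0.40 SE, edgeR adjusted p = 0.011). PYK10 (AT3G09260), a beta-glucosidase of endoplasmic reticulum bodies, had 2137 and 2593 CPM at day 4 and 975 and 1449 CPM at day 7 (log2 fold change -0.96 ± 0.26 SE, edgeR adjusted p = 0.021), and its call was lost without day 4 replicate 2 (edgeR adjusted p = 0.11) and without day 7 replicate 1 (0.13). BGLU22 (AT1G66280), another beta-glucosidase, had 627 and 777 CPM at day 4 and 238 and 209.8 CPM at day 7 (log2 fold change -1.65 ± 0.14 SE, edgeR adjusted p = 0.00012), with a copy (AT1G66270) at 91.5% identity. JAL34, a jacalin-related lectin, and PIP1A, an aquaporin, also lost, at log2 fold changes of -0.86 and -0.93. DI19 (AT1G56280), a zinc-finger factor, had the largest gain among the genes that the rule admits, with 984 and 939 CPM at day 4 and 1690.2 and 1782 CPM at day 7 (log2 fold change 0.85 ± 0.19 SE, edgeR adjusted p = 0.0091; 0.057 without day 4 replicate 2). J11 (AT4G36040), a DnaJ-type co-chaperone, had 604 and 667 CPM at day 4 and 1123 and 999 CPM at day 7 (log2 fold change 0.74 ± 0.13 SE, edgeR adjusted p = 0.0035). AO1 (AT5G20960), an aldehyde oxidase, had 617 and 499.8 CPM at day 4 and 992 and 849.8 CPM at day 7 (log2 fold change 0.72 ± 0.15 SE, edgeR adjusted p = 0.0079), a call lost without day 4 replicate 2 or day 7 replicate 1 (edgeR adjusted p up to 0.062). UBC10, a ubiquitin-conjugating enzyme, and ABCB15, a transporter, gained too, but their calls were lost without any one dark library (edgeR adjusted p 0.074 to 0.13 and 0.081 to 0.19).

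Every listed gene of mitosis was lower at day 7. All 21 tested members fell, with a median log2 fold change of -2.01, against 20.3% falls and a median of -0.01 over all loci. The count was 19 to 20 with a dark library left out. In lit-shoot roots none of the 21 was called over the same days (median -0.10), and the interaction called 19 of them. In whole roots, fewer cells of a type and less RNA per cell cannot be told apart. CDKB2;1 (AT1G76540), a kinase of mitotic entry, had 15.3 and 20.4 CPM at day 4 and 5.20 and 4.72 CPM at day 7 (log2 fold change -1.84 ± 0.17 SE, edgeR adjusted p = 0.00019). CDC20.2 (AT4G33260), an activator of the anaphase-promoting complex, had 4.43 and 6.87 CPM at day 4 and 0.839 and 0.908 CPM at day 7 (log2 fold change -2.68 ± 0.27 SE, edgeR adjusted p = 0.00024), and CDC20.1 next to it is 97.0% identical, which makes its value uncertain. CYC1BAT (AT5G06150), a B-type cyclin, had 5.75 and 8.01 CPM at day 4 and 1.88 and 1.89 CPM at day 7 (log2 fold change -1.86 ± 0.19 SE, edgeR adjusted p = 0.00028). CYCB2;2 (AT4G35620), also a B-type cyclin, had 4.55 and 5.48 CPM at day 4 and 0.839 and 0.835 CPM at day 7 (log2 fold change -2.58 ± 0.26 SE, edgeR adjusted p = 0.00027). The libraries of both days did not overlap in these 4 genes, as in 70.5% of all loci tested. Of 27 tested kinesins, motor proteins many of which work in the spindle and the phragmoplast, 19 fell and 0 rose, among them ATK5 (12.0 and 13.8 CPM at day 4 and 1.68 and 2.18 CPM at day 7; log2 fold change -2.73 ± 0.18 SE, edgeR adjusted p = 4.9e-05). Of 16 tubulins 13 fell and 0 rose, led by TUB1 (17.0 and 23.5 CPM at day 4 and 2.60 and 1.34 CPM at day 7; log2 fold change -3.37 ± 0.30 SE, edgeR adjusted p = 0.00024). Kinesins, tubulins and every other family given by product name were grouped after the values were seen, and so were chosen the genes named with them and the listed members described beyond the naming rule, such as both cyclins.

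Genes of DNA replication fell by less. Of 21 tested members 17 fell and 0 rose (median -1.17; lit-shoot roots -0.11, with 0 called). CDC6 (AT2G29680), which loads the replicative helicase, had 2.03 and 1.70 CPM at day 4 and 0.240 and 0.508 CPM at day 7 (log2 fold change -2.28 ± 0.36 SE, edgeR adjusted p = 0.0022). It was under 10 counts in a day 7 library, so its entry leaned on day 4. MCM6 (AT5G44635), a subunit of that helicase, had 7.07 and 5.18 CPM at day 4 and 2.56 and 1.78 CPM at day 7 (log2 fold change -1.50 ± 0.23 SE, edgeR adjusted p = 0.0018). TIL1 (AT1G08260), the catalytic subunit of DNA polymerase epsilon, was the most abundant called member with 65.3 and 63.9 CPM at day 4 and 53.6 and 48.9 CPM at day 7 (log2 fold change -0.33 ± 0.10 SE, edgeR adjusted p = 0.038), and its call was lost without any one dark library (edgeR adjusted p 0.066 to 0.15). RNR2A, a ribonucleotide reductase subunit, had 10.05 and 6.79 CPM at day 4 and 10.9 and 15.1 CPM at day 7 and was not called (log2 fold change 0.63 ± 0.23 SE, edgeR adjusted p = 0.063). Of 15 genes of DNA methylation and silencing 7 fell and 1 rose, against 20.3% falls and 13.3% rises over all loci. CMT3 (AT1G69770), the chromomethylase that keeps CHG methylation through replication, had 17.7 and 20.0 CPM at day 4 and 4.64 and 3.81 CPM at day 7 (log2 fold change -2.16 ± 0.14 SE, edgeR adjusted p = 4.9e-05). MOM, a silencing factor, had 90.2 and 95.4 CPM at day 4 and 141 and 115 CPM at day 7 (log2 fold change 0.46 ± 0.11 SE, edgeR adjusted p = 0.015; edgeR adjusted p 0.0094 to 0.089 without a dark library).

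The stretches of 250 bases before the annotated start are shown for 3 of these genes and for a ribosomal protein gene described further on, because motifs known from cell cycle and ribosomal protein promoters can be read in them. Sequences are from TAIR10.1, 5' to 3' on the gene's strand, and capitals mark AACGG (core of the mitosis-specific activator element) in the cyclin genes, TTTCCCGC (E2F site) in MCM6 and TGGGCC (site II element) in EMB3010, on either strand. The stretches are at chr5:1861704-1861953, minus strand (CYC1BAT), chr4:16901346-16901595, plus strand (CYCB2;2), chr5:18010668-18010917, minus strand (MCM6) and chr5:3260255-3260504, minus strand (EMB3010).
CYC1BAT: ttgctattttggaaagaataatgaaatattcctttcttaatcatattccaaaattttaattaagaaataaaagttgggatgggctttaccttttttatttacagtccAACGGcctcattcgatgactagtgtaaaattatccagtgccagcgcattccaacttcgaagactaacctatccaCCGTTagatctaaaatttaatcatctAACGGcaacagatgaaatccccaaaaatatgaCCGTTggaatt
CYCB2;2: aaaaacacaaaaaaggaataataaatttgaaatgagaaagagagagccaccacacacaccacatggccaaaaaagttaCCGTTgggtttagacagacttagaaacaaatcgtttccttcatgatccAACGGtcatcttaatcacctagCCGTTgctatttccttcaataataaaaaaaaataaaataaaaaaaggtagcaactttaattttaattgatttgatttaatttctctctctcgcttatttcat
MCM6: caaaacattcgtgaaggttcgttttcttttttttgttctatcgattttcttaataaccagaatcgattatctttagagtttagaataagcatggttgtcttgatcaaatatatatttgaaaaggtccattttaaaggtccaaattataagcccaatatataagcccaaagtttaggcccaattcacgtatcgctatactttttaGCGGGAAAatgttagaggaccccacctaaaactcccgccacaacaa
EMB3010: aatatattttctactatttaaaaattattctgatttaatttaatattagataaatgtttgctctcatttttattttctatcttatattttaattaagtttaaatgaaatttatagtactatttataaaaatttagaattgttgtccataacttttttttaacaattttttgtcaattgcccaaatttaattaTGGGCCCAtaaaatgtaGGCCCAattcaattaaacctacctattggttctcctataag
The core AACGG occurred 4 times before CYC1BAT and 3 times before CYCB2;2, the E2F site once before MCM6, and the site II element 3 times before EMB3010, where a pair of matches overlaps on opposite strands. AACGG was present in 13 of 21 mitotic promoters (61.9%) and in 21.8% of the 18945 promoters of tested protein-coding loci. TTTCCCGC was present in 7 of 21 replication promoters (33.3%) and in 0.623% of the 18945. The same shares among all 26711 protein-coding promoters were 20.6% and 0.618%. AACGG was in 22.5% of promoters of called rises and 21.4% of those of called falls. It was also in 10 of 21 promoters of the abscisic acid list (47.6%). The lists were not chosen at random, and a match is not shown to be a working site.

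**Figure D2:**
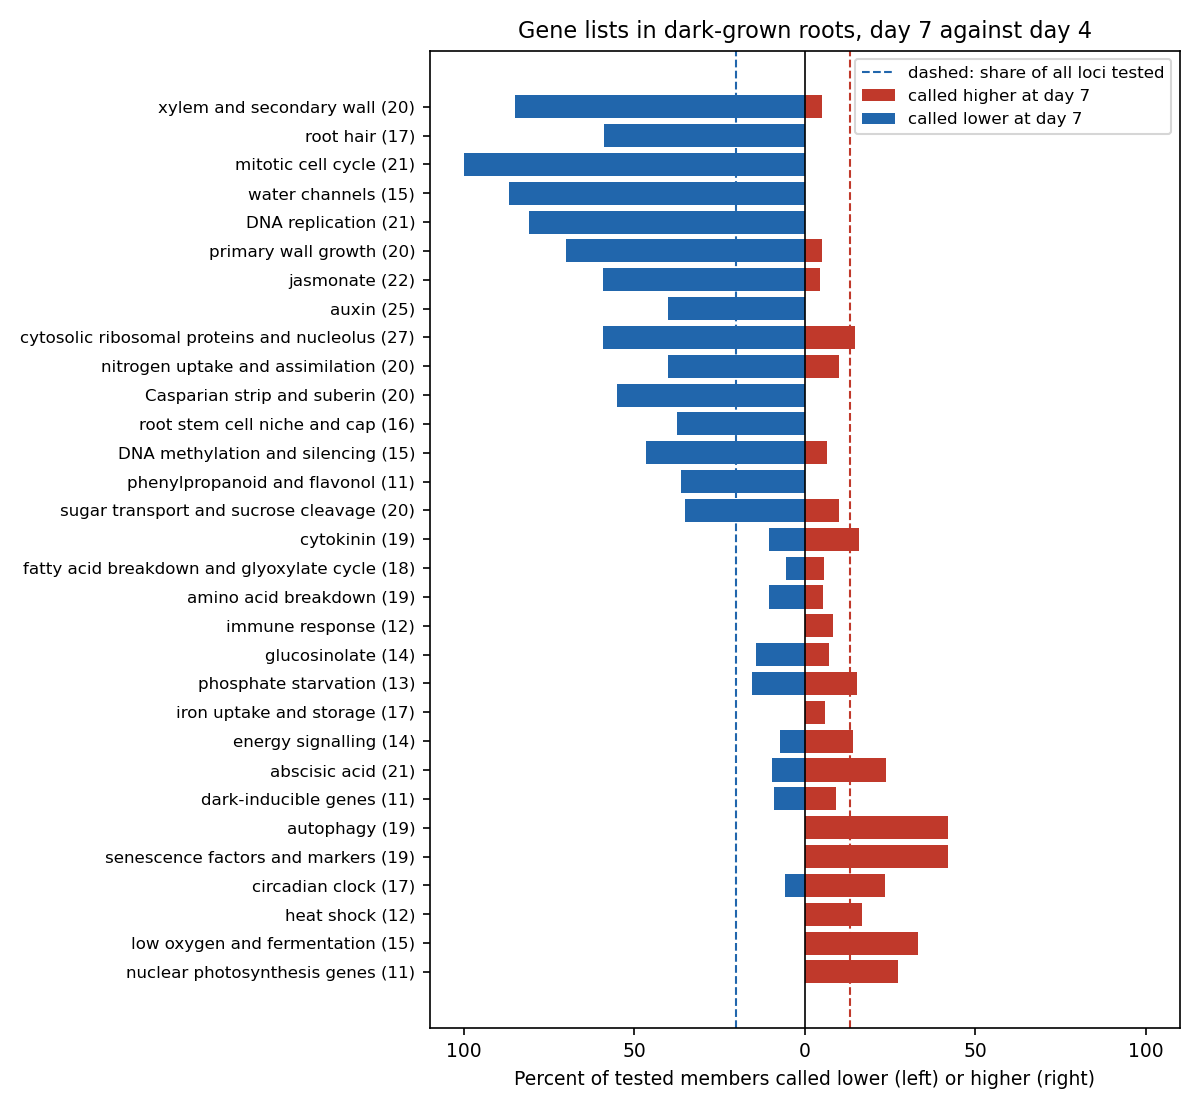
Percent of tested members of each list called higher (red, right) or lower (blue, left) at day 7 in the dark, ordered by median log2 fold change, with the number tested in brackets. Dashed lines mark 13.3% and 20.3%, the shares of all loci tested. All 21 mitotic members and 17 of 20 xylem members were lower, and 8 of 19 members of the autophagy list were higher.

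Genes of xylem vessels and their secondary walls showed the deepest median of all lists. Of 20 tested members 17 fell and 1 rose, at a median log2 fold change of -3.60, and lit-shoot roots had 0.07. The interaction called 16 members below 0. Without 2 members that passed the filter through the day 4 libraries alone, 15 of 18 fell (median -3.45). IRX1 (AT4G18780), a cellulose synthase of secondary walls, had 31.8 and 49.3 CPM at day 4 and 1.799 and 2.14 CPM at day 7 (log2 fold change -4.36 ± 0.30 SE, edgeR adjusted p = 9.7e-05). XCP1 (AT4G35350, chromosome 4, 16810482 to 16812077, plus strand), a cysteine protease that clears dying vessel cells, had 70.2 and 86.3 CPM at day 4 and 3.96 and 3.16 CPM at day 7 (log2 fold change -4.46 ± 0.20 SE, edgeR adjusted p = 1.6e-05). LAC11 (AT5G03260), a laccase of lignin assembly, had 39.6 and 50.1 CPM at day 4 and 2.00 and 2.22 CPM at day 7 (log2 fold change -4.41 ± 0.18 SE, edgeR adjusted p = 5.6e-06). The day 7 libraries of these genes all lay under 4 CPM. VND7 (AT1G71930), the NAC factor that starts vessel formation, had 3.14 and 4.00 CPM at day 4 and 0.320 and 0.472 CPM at day 7 (log2 fold change -3.15 ± 0.33 SE, edgeR adjusted p = 0.0003), and MYB46 (AT5G12870), a wall regulator under it, had 2.73 and 4.00 CPM at day 4 and 0.839 and 0.145 CPM at day 7 (log2 fold change -2.79 ± 0.54 SE, edgeR adjusted p = 0.006). CTL2, a chitinase-like protein of these walls, had the deepest fall of the list (log2 fold change -4.66 ± 0.26 SE, edgeR adjusted p = 3.7e-05), CESA4 fell by 4.13 on the log2 scale, and LAC17 fell by 4.19, with 91.9% of its length overlapped by a locus on the other strand. The list's rise was in BHLH32 (AT3G25710), a factor of young xylem cells, which had 42.7 and 44.4 CPM at day 4 and 71.3 and 67.9 CPM at day 7 (log2 fold change 0.68 ± 0.17 SE, edgeR adjusted p = 0.017; edgeR adjusted p 0.052 to 0.085 without a dark library). HB-8 (AT4G32880), a procambial homeodomain factor, had 51.0 and 53.6 CPM at day 4 and 41.4 and 42.4 CPM at day 7 and was not called (log2 fold change -0.32 ± 0.15 SE, edgeR adjusted p = 0.13). ACL5, a thermospermine synthase that delays vessel death, had 87.8 and 105 CPM at day 4 and 93.4 and 60.03 CPM at day 7 (log2 fold change -0.33 ± 0.19 SE, edgeR adjusted p = 0.21) and was not called.

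Primary wall genes and secreted wall proteins fell as well, beside 20.3% falls and 13.3% rises over all loci. Of 20 tested primary wall genes 14 fell and 1 rose (median -1.03). COB (AT5G60920), which orients cellulose deposition, had 100.1 and 116 CPM at day 4 and 50.3 and 55.4 CPM at day 7 (log2 fold change -1.03 ± 0.11 SE, edgeR adjusted p = 0.00039). XTH17 (AT1G65310), a wall-loosening endotransglucosylase, had 488 and 44 counts at day 4 and 0 and 3 at day 7. It passed the filter through the day 4 libraries alone, so its fall supports nothing further, and it has a copy at 90.7% identity. Without it 13 of 19 genes fell. XTH24 rose (130.0 and 84.5 CPM at day 4 and 249.8 and 234 CPM at day 7; log2 fold change 1.17 ± 0.29 SE, edgeR adjusted p = 0.02), a call lost without day 4 replicate 2 or without either day 7 library (edgeR adjusted p up to 0.09). FER, a receptor kinase that senses the wall, had 565 and 535 CPM at day 4 and 489 and 494 CPM at day 7 and was not called (log2 fold change -0.16 ± 0.12 SE, edgeR adjusted p = 0.32). By product name, 34 of 40 arabinogalactan and fasciclin-like proteins fell and 0 rose (median -2.22), as did 26 of 42 pectin lyase-like proteins, 26 of 44 lipid transfer proteins and 8 of 19 expansins, each with 0 rises. Without the members that passed the filter through day 4 alone, the falls were 28 of 34, 21 of 37, 19 of 36 and 6 of 17 in the same order. Of 52 peroxidases 30 fell and 1 rose, and of 128 leucine-rich repeat kinases 53 fell and 9 rose. PRXR1, an abundant peroxidase, had 721 and 881 CPM at day 4 and 496 and 486 CPM at day 7 (log2 fold change -0.71 ± 0.15 SE, edgeR adjusted p = 0.009). Among the phenylpropanoid genes, which feed lignin, 4 of 11 tested fell and 0 rose, led by PAL1 (AT2G37040), the entry enzyme, with 186 and 269.6 CPM at day 4 and 74.8 and 71.9 CPM at day 7 (log2 fold change -1.63 ± 0.18 SE, edgeR adjusted p = 0.00036).

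**Figure D3:**
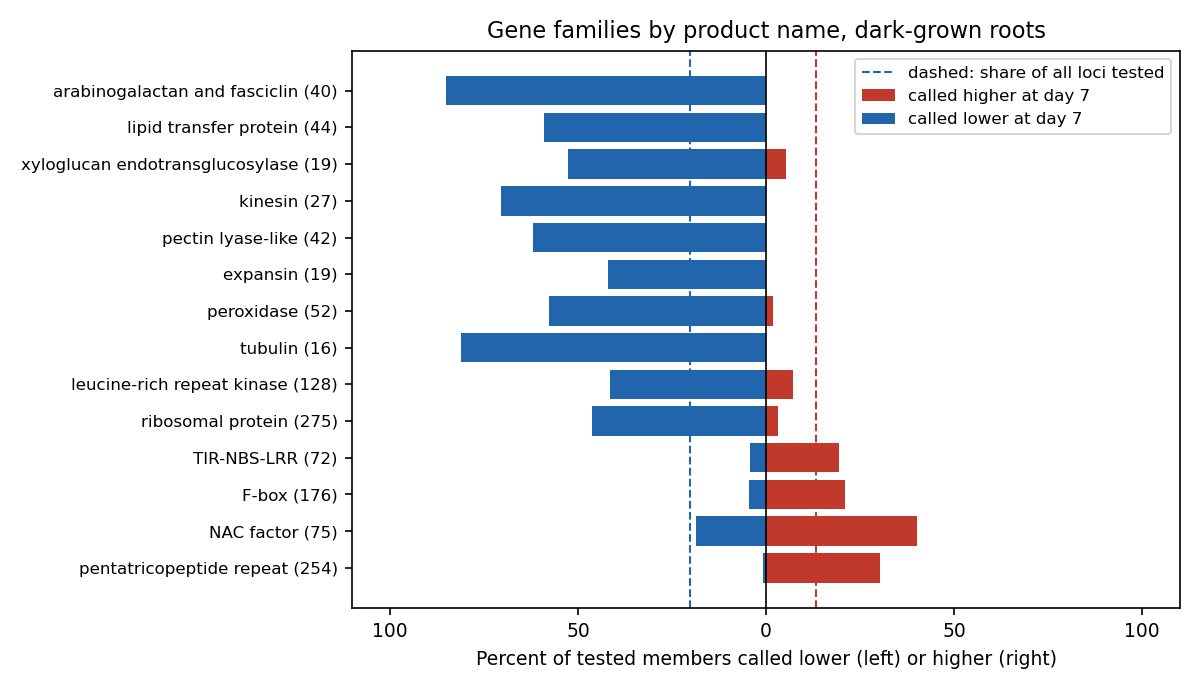
Percent of tested members of 14 families, grouped by the product names of the reference, that were called higher (red, right) or lower (blue, left) at day 7 in the dark, with the number tested in brackets and dashed lines at the shares of all loci. Of 40 arabinogalactan and fasciclin-like proteins 34 were lower, and of 254 pentatricopeptide repeat proteins 77 were higher.

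Differentiation genes of root hairs and of the endodermis fell in part, beside 20.3% falls over all loci. The root hair list also holds GL2 and WER, factors of the non-hair fate. Of its 17 tested genes 10 fell and 0 rose (median -2.02, with -0.44 and 1 fall in lit-shoot roots). The falls were 7 without day 7 replicate 1 and 13 without day 4 replicate 1, and the median was -1.32 without day 4 replicate 2. RHD6 (AT1G66470), the factor that starts root hairs, had 22.7 and 21.0 CPM at day 4 and 5.36 and 8.86 CPM at day 7 (log2 fold change -1.61 ± 0.23 SE, edgeR adjusted p = 0.0014). RHD2 (AT5G51060), the NADPH oxidase of hair tip growth, had 85.3 and 81.6 CPM at day 4 and 33.2 and 35.0 CPM at day 7 (log2 fold change -1.29 ± 0.10 SE, edgeR adjusted p = 7.2e-05). Its replicates lay within 4 CPM of each other on each day. EXPA18 (AT1G62980), a hair expansin, had 10 and 64 counts at day 4 and 0 and 1 at day 7, and 16.5 to 31.8 CPM in lit-shoot roots. It is one of 4 root hair genes that passed the filter through the day 4 libraries alone and so had to differ. Of the other 13, 6 fell (median -1.51). CPC, a mobile factor of hair fate, had 11.1 and 9.22 CPM at day 4 and 7.48 and 12.3 CPM at day 7 and was not called (log2 fold change -0.04 ± 0.24 SE, edgeR adjusted p = 0.92). Of 20 Casparian strip and suberin genes 11 fell and 0 rose (median -0.53), and with lit shoots 3 fell (median -0.44). CASP5 (AT5G15290), a scaffold of the strip, had 41.8 and 56.3 CPM at day 4 and 4.92 and 4.69 CPM at day 7 (log2 fold change -3.35 ± 0.18 SE, edgeR adjusted p = 2.7e-05) and also fell with lit shoots (log2 fold change -1.71 ± 0.16, edgeR adjusted p = 0.0048). RWP1, a feruloyl transferase of suberin, had 233 and 249 CPM at day 4 and 209 and 218 CPM at day 7 and was not called (log2 fold change -0.17 ± 0.11 SE, edgeR adjusted p = 0.24).

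Genes of the stem cell niche and root cap fell in part, beside 20.3% falls over all loci. Of 16 tested members 6 fell and 0 rose (median -0.41), and with lit shoots 3 fell (median -0.60), while the interaction called 1 above and 2 below. There were 3 to 5 falls in the dark when a dark library was left out, and the fewest without day 4 replicate 2 or day 7 replicate 1. PLT1 (AT3G20840), a meristem factor, had 15.3 and 19.4 CPM at day 4 and 10.8 and 12.8 CPM at day 7 (log2 fold change -0.55 ± 0.16 SE, edgeR adjusted p = 0.028; edgeR adjusted p 0.021 to 0.17 without a dark library). SMB (AT1G79580), which matures the root cap, had 18.9 and 18.5 CPM at day 4 and 7.24 and 9.55 CPM at day 7 (log2 fold change -1.15 ± 0.21 SE, edgeR adjusted p = 0.0038). CEL5 (AT1G22880), a cellulase of shed cap cells, had 170 and 337 counts at day 4 and 0 and 2 at day 7. It passed the filter through the day 4 libraries alone, and without it 5 of 15 members fell (median -0.27). SCR, a factor of the niche and endodermis, had 42.7 and 52.1 CPM at day 4 and 38.3 and 41.6 CPM at day 7 and was not called (log2 fold change -0.25 ± 0.14 SE, edgeR adjusted p = 0.22). AIL6, a PLETHORA relative, had 109 and 115 CPM at day 4 and 106 and 107 CPM at day 7 and was not called (log2 fold change -0.08 ± 0.14 SE, edgeR adjusted p = 0.7).

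Water channel genes and parts of nitrate nutrition were lower, beside 20.3% falls and 13.3% rises over all loci. Of 15 tested aquaporins 13 fell and 0 rose (median -1.21; lit-shoot roots -0.31, 0 called). DELTA-TIP (AT3G16240), a vacuolar aquaporin, had 73.2 and 76.7 CPM at day 4 and 2.80 and 6.36 CPM at day 7 (log2 fold change -4.02 ± 0.34 SE, edgeR adjusted p = 0.0003). TIP2 (AT3G26520), also vacuolar, had 1227 and 1732 CPM at day 4 and 833 and 756 CPM at day 7 (log2 fold change -0.90 ± 0.22 SE, edgeR adjusted p = 0.014), a call lost without day 4 replicate 2 or either day 7 library (edgeR adjusted p up to 0.089). PIP1B, of the plasma membrane, had 1590.3 and 1449.8 CPM at day 4 and 1829 and 1862 CPM at day 7 and was not called (log2 fold change 0.28 ± 0.23 SE, edgeR adjusted p = 0.37). Of 20 nitrogen genes 8 fell and 2 rose. NIA1 (AT1G77760), a nitrate reductase, had 29.8 and 22.7 CPM at day 4 and 5.64 and 6.25 CPM at day 7 (log2 fold change -2.14 ± 0.21 SE, edgeR adjusted p = 0.00024), and NLP7, a nitrate-sensing factor, had 208 and 213 CPM at day 4 and 307 and 260.3 CPM at day 7 (log2 fold change 0.43 ± 0.12 SE, edgeR adjusted p = 0.021; edgeR adjusted p 0.019 to 0.12 without a dark library). GLT1, the NADH-dependent glutamate synthase, had 3611 and 3601 CPM at day 4 and 3305 and 3644 CPM at day 7 (log2 fold change -0.05 ± 0.16 SE, edgeR adjusted p = 0.82) and was not called.

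Cytosolic ribosomal protein genes fell in part, and a share of the genes of organelle RNA processing rose. Of 27 listed genes 16 fell and 4 rose (median -0.57). The falls numbered 5 to 13 with a dark library left out, fewest without day 7 replicate 1. EMB3010 (AT5G10360), a ribosomal protein S6, had 303 and 278 CPM at day 4 and 174 and 204 CPM at day 7 (log2 fold change -0.62 ± 0.16 SE, edgeR adjusted p = 0.018), a call lost without day 4 replicate 1 (edgeR adjusted p = 0.083) or day 7 replicate 1 (0.12). RPL10B (AT1G26910) had 10.9 and 12.8 CPM at day 4 and 4.32 and 5.05 CPM at day 7 (log2 fold change -1.34 ± 0.18 SE, edgeR adjusted p = 0.001). The 4 rises were nucleolar genes rather than ribosomal proteins, and PUM24 (AT3G16810), a factor of rRNA processing, rose most with 19.1 and 19.5 CPM at day 4 and 33.3 and 34.2 CPM at day 7 (log2 fold change 0.81 ± 0.11 SE, edgeR adjusted p = 0.0012). Of 275 genes with a ribosomal protein as product 127 fell and 9 rose (median -0.48; lit-shoot roots 0.00). The site II element, shown in capitals before EMB3010, was present in 127 of 275 of their promoters (46.2%) and in 16.6% of all tested promoters, and the telo box AAACCCTA in 13.8% and 3.53%. The site II element was also in 11 of 21 promoters of the replication list (52.4%), and the stretch before MCM6 holds a match that is not in capitals. Over all called loci both were more frequent before rises than before falls. The site II element was in 19.1% and 14.4% of these promoters, and the telo box in 4.55% and 2.81%. A link between either motif and the direction of change was not tested. The 2 motifs were searched on both strands. Of 254 pentatricopeptide repeat proteins, which edit and process RNA of mitochondria and plastids, 77 rose and 2 fell (median 0.51; lit-shoot roots -0.02, 0 called). RARE1 (AT5G13270), an editing factor of plastids, had 3.27 and 2.70 CPM at day 4 and 7.08 and 7.77 CPM at day 7 (log2 fold change 1.31 ± 0.22 SE, edgeR adjusted p = 0.0028). Of 58 mitochondrion-encoded loci 22 fell and 1 rose, and of 86 plastid-encoded loci 12 rose and 2 fell, rises near the 13.3% over all loci. ATMG00020, the locus with most counts, had 60158 and 78217 CPM at day 4 and 29087 and 31669 CPM at day 7 (log2 fold change -1.19 ± 0.53 SE, edgeR adjusted p = 0.12) and was not called.

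**Figure D4:**
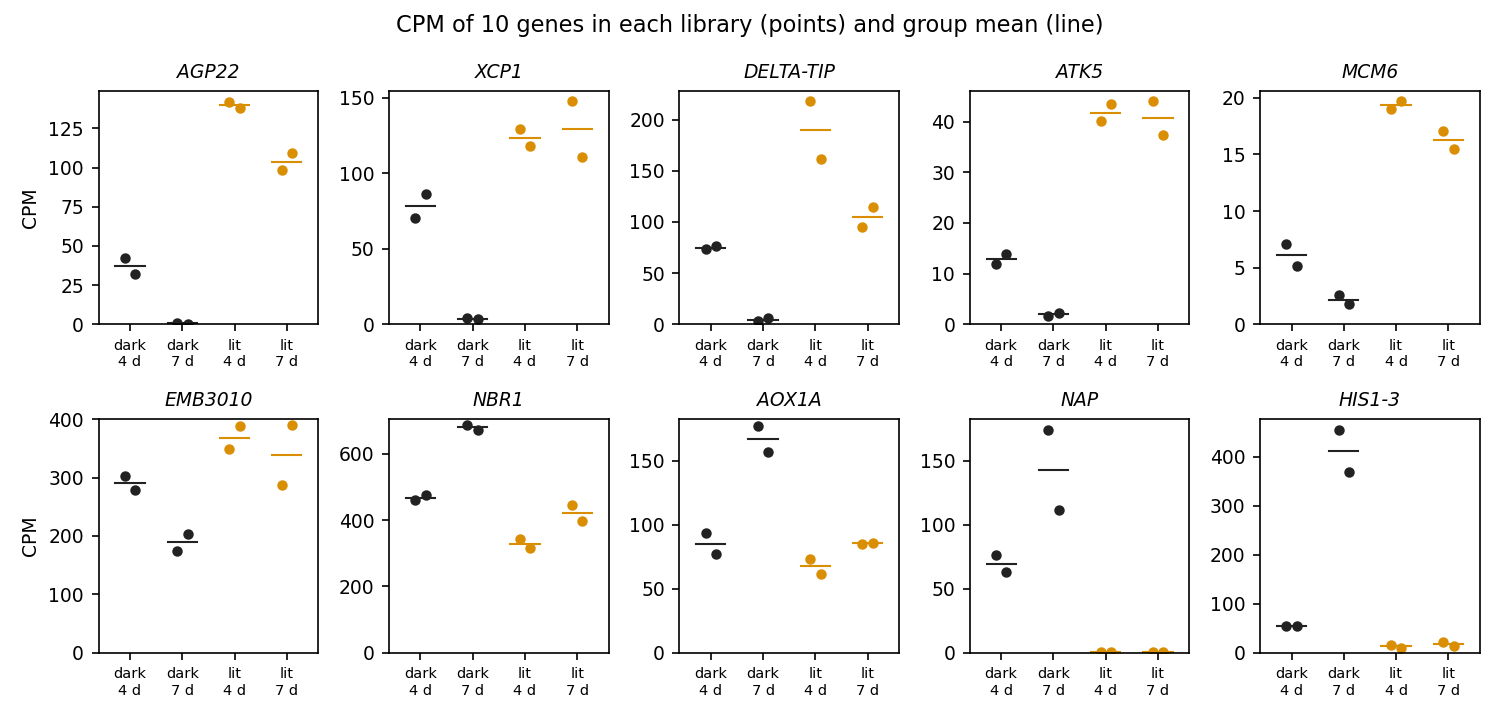
CPM of 10 genes in each of the 8 libraries (points) with the group mean (line), dark libraries in black and lit-shoot libraries in orange, with each axis starting at 0. AGP22, XCP1, DELTA-TIP and ATK5 had at most 6.36 CPM in the dark libraries of day 7, below all other libraries, and HIS1-3 reached 369 and 455 CPM there.

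Few listed genes of starvation responses were called between the days, against 13.3% rises and 20.3% falls over all loci. Their level in the dark was already high at day 4. Dark-inducible genes summed to 6666 and 6185 CPM there, and to 1214 and 877 CPM with lit shoots at day 4. In the same order the sums were 8264 and 8753 against 2453 and 2050 CPM for amino acid breakdown. For fatty acid breakdown and the glyoxylate cycle they were 6530 and 5556 against 2768 and 2670 CPM. Of 11 dark-inducible genes 1 rose and 1 fell, and their median was 0.19. DIN2 (AT3G60140), a beta-glucosidase and the most abundant member, had 2429 and 1864 CPM at day 4 and 6019 and 3199 CPM at day 7 and missed the threshold (log2 fold change 1.103 ± 0.37 SE, edgeR adjusted p = 0.055). Its day 7 replicates differed widely, but both lay above day 4. DIN9 (AT1G67070), a mannose-6-phosphate isomerase, had 77.4 and 66.8 CPM at day 4 and 122 and 89.0 CPM at day 7 (log2 fold change 0.55 ± 0.15 SE, edgeR adjusted p = 0.025), a call lost without day 4 replicate 2 or day 7 replicate 1 (edgeR adjusted p up to 0.16). DIN11, an oxygenase, had 10.7 and 8.57 CPM at day 4 and 3.24 and 2.07 CPM at day 7 (log2 fold change -1.86 ± 0.33 SE, edgeR adjusted p = 0.0039). With lit shoots the list had 4 falls and a median of -0.89, and the interaction called 3 members above 0 and 0 below (median 1.12). Of 19 genes of amino acid breakdown 1 rose and 2 fell, and the interaction called 5 above 0 and 1 below. AT4G33150, the bifunctional enzyme of lysine breakdown, had 950.5 and 1058 CPM at day 4 and 1871 and 1248 CPM at day 7 (log2 fold change 0.63 ± 0.21 SE, edgeR adjusted p = 0.049; edgeR adjusted p 0.018 to 0.31 without a dark library), and GDH2, a glutamate dehydrogenase, had 1658 and 1961 CPM at day 4 and 1566 and 1262 CPM at day 7 and was not called (log2 fold change -0.36 ± 0.17 SE, edgeR adjusted p = 0.13). Of 18 genes of fatty acid breakdown and the glyoxylate cycle 1 rose, SDP1 (AT5G04040), the triacylglycerol lipase of seed oil (206 and 203 CPM at day 4 and 356 and 278 CPM at day 7; log2 fold change 0.63 ± 0.14 SE, edgeR adjusted p = 0.0091), and CSY2, a peroxisomal citrate synthase, fell (log2 fold change -0.45 ± 0.14 SE, edgeR adjusted p = 0.033). Both calls depended on which libraries were kept (edgeR adjusted p up to 0.057 and 0.15 without a dark library).

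Of 20 genes of sugar transport and sucrose cleavage 7 fell and 2 rose (median -0.27). CINV1 (AT1G35580), a cytosolic invertase needed for root growth, had 802 and 831 CPM at day 4 and 428 and 391 CPM at day 7 (log2 fold change -0.996 ± 0.12 SE, edgeR adjusted p = 0.00052). SUS4, a sucrose synthase, had 2.52 and 2.92 CPM at day 4 and 0.959 and 1.02 CPM at day 7 (log2 fold change -1.45 ± 0.31 SE, edgeR adjusted p = 0.0082; 0.054 without day 7 replicate 1). STP14, a sugar transporter, rose in the dark (log2 fold change 1.96 ± 0.33 SE, edgeR adjusted p = 0.0029) and with lit shoots (log2 fold change 1.98 ± 0.44, edgeR adjusted p = 0.046). Among 14 tested genes of energy signalling 2 rose and 1 fell, rises near the 13.3% over all loci and falls under the 20.3%. TPS11 (AT2G18700), a trehalose-phosphate synthase-like protein, had 328 and 325 CPM at day 4 and 508 and 449 CPM at day 7 (log2 fold change 0.55 ± 0.11 SE, edgeR adjusted p = 0.0068), and TPS5 had 27.96 and 34.2 CPM at day 4 and 18.3 and 20.12 CPM at day 7 (log2 fold change -0.70 ± 0.13 SE, edgeR adjusted p = 0.0043). The class S1 factors listed as BZIP1, BZIP2, BZIP11, BZIP44 and BZIP53 were listed at 0 counts in all 8 libraries, as was the vascular factor LHW. A 0 for these loci is not shown to mean that no transcript was there.

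Autophagy and senescence genes rose in part, beside 13.3% rises and 20.3% falls over all loci. Of 19 autophagy genes 8 rose and 0 fell (median 0.20), and 1 to 7 rose with a dark library left out, fewest without day 4 replicate 1 or day 7 replicate 1. NBR1 (AT4G24690), a cargo receptor, had 460.4 and 475 CPM at day 4 and 686 and 672 CPM at day 7 (log2 fold change 0.54 ± 0.11 SE, edgeR adjusted p = 0.0079; 0.05 without day 4 replicate 1). ATG8B (AT4G04620), a membrane-linked ubiquitin-like protein, had 87.5 and 64.7 CPM at day 4 and 145 and 123 CPM at day 7 (log2 fold change 0.82 ± 0.17 SE, edgeR adjusted p = 0.0072; 0.052 without day 7 replicate 1). ATG8F, a relative, had 236 and 216 CPM at day 4 and 252 and 181 CPM at day 7 and was not called (log2 fold change -0.06 ± 0.20 SE, edgeR adjusted p = 0.83). By edgeR the interaction called 0 of the 19. Of 19 senescence factors and markers 8 rose and 0 fell (median 0.34; 5 to 7 with a dark library left out, fewest without day 4 replicate 2). NYC1 (AT4G13250), a chlorophyll b reductase, had 106 and 79.1 CPM at day 4 and 257 and 170.1 CPM at day 7 (log2 fold change 1.21 ± 0.24 SE, edgeR adjusted p = 0.0083). NAP (AT1G69490), a NAC factor of leaf senescence, had 75.9 and 63.0 CPM at day 4 and 174 and 112 CPM at day 7 (log2 fold change 1.04 ± 0.20 SE, edgeR adjusted p = 0.0057). NAC6 (AT5G39610), known as ORE1, had 20.9 and 20.06 CPM at day 4 and 50.7 and 39.1 CPM at day 7 (log2 fold change 1.13 ± 0.17 SE, edgeR adjusted p = 0.0018). Days did not overlap in these 3 genes, which held for 70.5% of all loci tested. WRKY53, a leaf senescence factor, had 27.6 and 16.8 CPM at day 4 and 17.1 and 19.4 CPM at day 7 and was not called (log2 fold change -0.29 ± 0.44 SE, edgeR adjusted p = 0.64). Over the NAC family 30 of 75 rose and 14 fell. NAC060, a factor known from sugar signalling, had 3.64 and 4.05 CPM at day 4 and 14.2 and 16.1 CPM at day 7 (log2 fold change 1.98 ± 0.24 SE, edgeR adjusted p = 0.00063), and NAC015, a root cap factor, had 9.97 and 8.57 CPM at day 4 and 1.44 and 1.67 CPM at day 7 (log2 fold change -2.57 ± 0.31 SE, edgeR adjusted p = 0.00062). Of 11 tested nuclear photosynthesis genes 3 rose and 0 fell (median 0.65; lit-shoot roots -1.01), with 0 to 2 rises when a dark library was left out, and 0 without either day 4 library or day 7 replicate 1. PSBO1 (AT5G66570), of the oxygen-evolving complex, had 4.51 and 3.66 CPM at day 4 and 14.8 and 8.83 CPM at day 7 (log2 fold change 1.53 ± 0.38 SE, edgeR adjusted p = 0.02).

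Hormone genes differed by pathway, beside 13.3% rises and 20.3% falls over all loci. Of 25 auxin genes 10 fell and 0 rose (median -0.76; 6 falls without day 7 replicate 1). SHY2 (AT1G04240), an Aux/IAA repressor, had 5.67 and 8.22 CPM at day 4 and 0.240 and 0.763 CPM at day 7 (log2 fold change -3.75 ± 0.53 SE, edgeR adjusted p = 0.0023), with a locus on the other strand over 41.5% of its length. SHY2 was under 10 counts in a day 7 library, so its entry leaned on day 4. TIR1 (AT3G62980), an auxin receptor, had 191 and 198 CPM at day 4 and 105 and 120.3 CPM at day 7 (log2 fold change -0.79 ± 0.11 SE, edgeR adjusted p = 0.0011), and NPH4, an auxin response factor, had 153 and 167 CPM at day 4 and 186 and 161 CPM at day 7 and was not called (log2 fold change 0.12 ± 0.11 SE, edgeR adjusted p = 0.45). Of 22 jasmonate genes 13 fell and 1 rose (median -0.76), with 7 falls without day 4 replicate 1 or either day 7 library. JAZ10 (AT5G13220), a repressor that the hormone induces, had 62.4 and 55.7 CPM at day 4 and 17.5 and 14.6 CPM at day 7 (log2 fold change -1.88 ± 0.17 SE, edgeR adjusted p = 0.00015). AOC3 (AT3G25780), an enzyme of jasmonate synthesis, had 233 and 129 CPM at day 4 and 75.6 and 85.3 CPM at day 7 (log2 fold change -1.17 ± 0.24 SE, edgeR adjusted p = 0.0094). COI1, the receptor, had 107 and 105 CPM at day 4 and 121 and 111 CPM at day 7 and was not called (log2 fold change 0.13 ± 0.10 SE, edgeR adjusted p = 0.32). The rise was in JRG21, which acts in hormone removal and is among the leading rises above. Of 21 abscisic acid genes 5 rose and 2 fell (1 to 4 rises with a dark library left out, fewest without day 7 replicate 1). HAI3 (AT2G29380), a phosphatase that the hormone induces, had 6.87 and 3.09 CPM at day 4 and 26.5 and 15.5 CPM at day 7 (log2 fold change 2.07 ± 0.47 SE, edgeR adjusted p = 0.013), and COR47 (AT1G20440), a dehydrin, had 925 and 845 CPM at day 4 and 545 and 384 CPM at day 7 (log2 fold change -0.93 ± 0.18 SE, edgeR adjusted p = 0.0059) and fell with lit shoots too. NCED3, the enzyme of the first committed step of synthesis, had 182 and 159 CPM at day 4 and 185 and 141 CPM at day 7 (log2 fold change -0.06 ± 0.15 SE, edgeR adjusted p = 0.76) and was not called. Of 19 cytokinin genes 3 rose and 2 fell, with rises near the share over all loci and falls under it. Of these falls, 1 was in a gene that passed the filter through day 4 alone. CKX4, a cytokinin oxidase, had 1.45 and 2.35 CPM at day 4 and 5.64 and 9.19 CPM at day 7 (log2 fold change 1.97 ± 0.38 SE, edgeR adjusted p = 0.0059), and the receptor gene HK3 had 440.4 and 424 CPM at day 4 and 681 and 578 CPM at day 7 (log2 fold change 0.54 ± 0.12 SE, edgeR adjusted p = 0.0095; edgeR adjusted p up to 0.061 without a dark library).

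Among stress genes, those of low oxygen rose in part, beside 13.3% rises and 20.3% falls over all loci. Of 15 tested members 5 rose and 0 fell (median 0.55; lit-shoot roots 0.34), and 3 to 5 rose with a dark library left out, fewest without a second replicate. LBD41 (AT3G02550), a hypoxia-response factor, had 16.3 and 16.7 CPM at day 4 and 41.7 and 40.2 CPM at day 7 (log2 fold change 1.31 ± 0.19 SE, edgeR adjusted p = 0.0014) and rose with lit shoots (log2 fold change 1.42 ± 0.21, edgeR adjusted p = 0.015). The difference between these rises was -0.10 ± 0.28 (edgeR adjusted p = 0.83). AOX1A (AT3G22370), the alternative oxidase of mitochondria, had 93.5 and 76.9 CPM at day 4 and 177 and 157 CPM at day 7 (log2 fold change 0.97 ± 0.13 SE, edgeR adjusted p = 0.0011). ADH1 (AT1G77120), alcohol dehydrogenase, had 21.1 and 10.97 CPM at day 4 and 32.8 and 31.6 CPM at day 7 (log2 fold change 1.004 ± 0.29 SE, edgeR adjusted p = 0.031), while HB1, a hypoxia-induced haemoglobin, had 4.22 and 2.05 CPM at day 4 and 2.68 and 3.34 CPM at day 7 and was not called (log2 fold change -0.06 ± 0.46 SE, edgeR adjusted p = 0.93).

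In heat shock genes the day 4 replicates stood apart from each other. Replicate 1 exceeded replicate 2 by a median of 2.58 on the log2 scale over 12 tested members, and HSP70 had 755 and 125 CPM at day 4 and 1431 and 969 CPM at day 7 (log2 fold change 1.45 ± 0.74 SE, edgeR adjusted p = 0.18). Of the 12, 2 rose in the full fit and 9 without day 4 replicate 1, against 1 without day 4 replicate 2. Day 7 replicates of HSP70 lay above both day 4 replicates, and the part of handling or growth in this spread was not tested.

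The nutrient, defence and clock lists held 1 to 5 calls each, beside 13.3% rises and 20.3% falls over all loci. Of 17 iron genes 1 rose, NRAMP1 (AT1G80830), a manganese and iron transporter, with 312 and 273 CPM at day 4 and 495 and 575 CPM at day 7 (log2 fold change 0.87 ± 0.12 SE, edgeR adjusted p = 0.0012). Of 13 phosphate starvation genes 2 rose and 2 fell, and PAP17, a purple acid phosphatase, had 39.9 and 36.5 CPM at day 4 and 82.8 and 66.4 CPM at day 7 (log2 fold change 0.96 ± 0.16 SE, edgeR adjusted p = 0.0024). Of 14 glucosinolate genes 1 rose and 2 fell, and CYP83B1, of the indole branch, had 79.8 and 107 CPM at day 4 and 47.5 and 58.4 CPM at day 7 (log2 fold change -0.82 ± 0.21 SE, edgeR adjusted p = 0.019; edgeR adjusted p up to 0.12 without a dark library). One of 12 immune genes rose, the receptor kinase FRK1, with 2 and 3 counts at day 4 and 49 and 19 at day 7, and it passed the filter through the day 7 libraries alone. WRKY33, a defence factor, had 738 and 515 CPM at day 4 and 708 and 598 CPM at day 7 without a call (log2 fold change 0.06 ± 0.28 SE, edgeR adjusted p = 0.89). Of 17 clock genes 4 rose and 1 fell, with 1 to 4 rises when a dark library was left out, fewest without day 7 replicate 2, beside 13.3% rises over all loci. RVE1 (AT5G17300), a clock output factor, had 25.1 and 14.8 CPM at day 4 and 45.4 and 76.7 CPM at day 7 (log2 fold change 1.61 ± 0.35 SE, edgeR adjusted p = 0.012). By product name, 37 of 176 F-box proteins rose and 8 fell, and 14 of 72 TIR-NBS-LRR immune receptors rose and 3 fell, with SNC1 at 23.8 and 23.8 CPM at day 4 and 52.6 and 53.3 CPM at day 7 (log2 fold change 1.15 ± 0.15 SE, edgeR adjusted p = 0.0008).

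**Figure D5:**
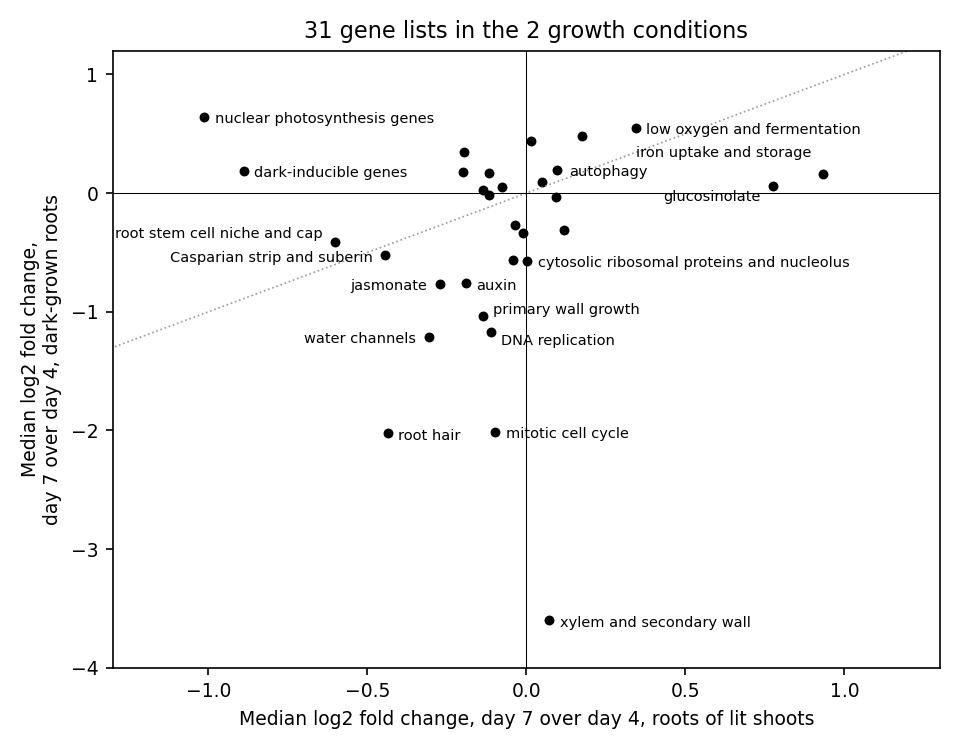
Median log2 fold change of day 7 over day 4 for 31 lists, dark-grown roots (vertical axis) against roots of lit shoots (horizontal axis). The dotted line marks equal change, and the xylem list lies at -3.60 in the dark and 0.07 with lit shoots.

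Loci that encode no protein were counted by class. Against 13.3% rises and 20.3% falls over all loci, 23 of 155 lncRNA loci rose and 6 fell, so that their rises were near the overall share. Of 36 snoRNA loci 9 rose and 1 fell, of 106 other ncRNA loci 12 rose and 12 fell, of 43 miRNA loci 2 rose and 4 fell, and of 154 pseudogenes 26 rose and 19 fell. The median exon length was 2154 bases among called rises, 1719 among called falls and 1788 over all tested loci. The part of length or RNA quality in the calls was not tested.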

How the data were processed

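The table holds whole-number read counts per locus, deposited by the authors for 8 libraries of Arabidopsis primary roots. Tools named in the submitters' processing notes are TopHat2, Subread, Trim Galore, FastQC and CASAVA 1.8.2, with build TAIR10. How the counting treated strand and multi-mapping reads is not given here, so overlapping loci and near-identical copies are uncertain. Totals were 25326045 to 30555290 counts per library.

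Loci with at least 10 counts in at least 2 of the 4 dark libraries were kept. edgeR 4.0.16 in R 4.3.3 fitted 4 group coefficients to all 8 libraries with TMM scaling and the quasi-likelihood test (4 residual degrees of freedom, common biological coefficient of variation 14.3%), for day 7 against day 4 in the dark and with lit shoots and for their interaction. Benjamini-Hochberg adjustment ran over all 19757 loci, with calls below 0.05, and SE is that of the log2 fold change. With 2 libraries against 2, an exact permutation test of a single value cannot go below 0.33. Tested on counts drawn with known changes in 200 of 19757 loci of the dark comparison, the fit recovered 73% of 2-fold and 98% of 4-fold changes, with 3.39% false calls. The drawn counts had a spread set by mean level alone, and equal numbers of rises and falls. In the data 33.6% of loci were called, with more falls than rises, so these rates need not hold there. Alternatives were DESeq2 1.42.0, other scalings and filters, the replicate block and leaving out each library.

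Names, exons, products and promoters came from RefSeq on TAIR10.1, which matched 32835 of 33602 loci, and copies were found with BLAST+ 2.17.0. Members and lists were chosen with earlier results of these data known. Genes were named by rule: from called loci that had a symbol, reached 2 in average log2 CPM and kept the days' libraries apart, the 12 largest rises and falls, the 6 largest CPM gains and losses and the 6 largest rises and falls that passed the interaction, and in each list the called extremes and the most abundant called and uncalled members. Other genes were chosen after their values were seen.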

Additional observations from a re-analysis of the deposited data

Results flagged for a closer look

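The change with age differed between dark-grown roots and roots of lit shoots at 3049 loci by edgeR's interaction test. Among the leading rises, the dark change exceeded the lit change on the log2 scale by 3.47 for JRG21, 2.67 for EMB1030, 2.53 for SRO3, 2.52 for HIS1-3, 1.63 for NUC-L2 and 1.17 for PLA2A. Among the leading falls, the same difference was -5.39 for AGP22, -5.22 for DMP2, -4.53 for XCP1, -4.10 for LAC11, -3.78 for ELP and -3.54 for FLA2. These genes were picked by their dark change and for passing the interaction. Groups of 2 libraries are too small for a search for outlying samples.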

How the results depend on the processing

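No called locus changed direction under any alternative run. Rises and falls were 2640 and 3929 with DESeq2, 2777 and 3888 with its size factors, 2521 and 3347 with the dark libraries alone, and 2615 and 4007 without organelle loci. With scaling by library totals alone, 1138 loci were called higher in the dark and above the lit change (713 as reported), and without the count filter the interaction called 4964 loci, 1332 of them in that group. Leaving out each of the 8 libraries in turn gave 1160 to 3035 rises, 2443 to 4087 falls, 894 to 3034 interaction calls, 201 to 854 rises above the lit change and 648 to 1806 falls below it. Fewer libraries leave fewer residual degrees of freedom. Deviations of same-numbered replicates were weakly and positively correlated between groups (0.0092 to 0.0888). The labels do not state whether a replicate number marks a shared batch, and these values cannot exclude one. A fit with the replicate block called 2631 rises and 4065 falls, 2460 and 3875 of them shared with the reported calls. Of 2232 values for 132 genes named by rule, 2020 kept direction and side of the threshold, 174 lost the call, 27 gained it and 11 changed sign, all for uncalled genes. With library totals these were ATG8F (log2 fold change 0.0059), AIL6 (0.0023), HK2 (0.043) and GLT1 (0.026). With a library left out they were HK2 (-0.094 to 0.030), GLT1 (-0.13 to 0.015), ATG8F (-0.32 to 0.16), CYP94B3 (-0.85 to 0.21), WRKY33 (-0.18 to 0.34, and -0.07 without day 7 replicate 1) and PEN2 (-0.11 to 0.15), and the cause was not tested. Genes named beyond the rule were not refitted one by one. At a median SE of 0.174, changes well under 2-fold could be missed.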
